A study of Mus musculus with 6 samples.

Results

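The 10 genes described here encode the classical MHC class I molecules of the mouse and the proteins that load them with peptide. They are H2-K1 and H2-D1 (the class I heavy chains), B2m (the light chain, beta-2 microglobulin), Tap1 and Tap2 (the peptide transporter), Tapbp (tapasin), Psmb8, Psmb9 and Psmb10 (the immunoproteasome subunits) and Nlrc5 (the class I transactivator). They were chosen by name, and every probe set annotated to one of them was kept. All 10 of 10 were measured, by 30 probe sets of the 45037 tested, against 18193 genes on the arrays with a probe set of their own.

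Class I molecules are made in nearly every nucleated cell and are abundant on lymphocytes and other cells of the spleen. The proteasome cuts cytosolic proteins, TAP carries the fragments into the endoplasmic reticulum, and tapasin holds an empty class I molecule beside TAP until a fitting peptide binds. Interferon gamma exchanges the constitutive catalytic subunits of the proteasome for those of the immunoproteasome, and CD8+ T cells, which take part in the destruction of beta cells in NOD mice, read the class I and peptide complex on the cell surface.

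The spleen RNA came from female NOD mice, an inbred strain that develops autoimmune diabetes spontaneously, in 3 groups. TSA-treated mice had received trichostatin A, an inhibitor of histone deacetylases, under the skin at 500 µg/kg once a week from week 18 to week 24 of age, and only mice free of diabetes after treatment were used. Diabetic mice were untreated and had become overtly diabetic, and untreated non-diabetic mice had stayed free of the disease. All mice carried the MHC haplotype of the strain, and no allele or transgene was altered. The labels give an age of 32 to 36 weeks for all groups and pools of 3 to 5 mice, whereas the study's methods give younger diabetic mice and somewhat larger pools. Age therefore cannot be told apart from diabetes if the methods apply. Each group was 1 RNA pool, labelled and hybridized on 2 arrays, so the p-values below measure the spread between hybridizations of a pool and not between mice. Levels are log2 values, so that a difference of 1 is a doubling, and the level of a gene was compared between groups within its own probe set.

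The 2 arrays of a group differed unequally. Over all probe sets the arrays correlated at 0.966 within TSA-treated, 0.973 within diabetic and 0.993 within untreated non-diabetic mice, and TSA-treated replicate 2 stood farthest from the rest. The 3′ probe set of beta-actin exceeded the 5′ one by 3.45 and 5.61 in TSA-treated mice, 2.42 and 3.32 in diabetic mice and 2.35 and 2.05 in untreated non-diabetic mice, a measure that grows as the RNA or its copies get shorter. For Gapdh the gaps were 3.85 and 4.58 in TSA-treated, 1.82 and 3.19 in diabetic and 2.67 and 1.91 in untreated non-diabetic mice. Differences of TSA-treated mice are therefore also given without replicate 2. TSA-treated replicate 1 likewise had wider gaps than every diabetic and untreated non-diabetic array, for both genes. Treatment and RNA length therefore cannot be told apart on either TSA-treated array.

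Upstream sequences of the class I genes are shown because the genes are known to share a set of regulatory elements. RefSeq promoter windows (GRCm38.p6, C57BL/6J reference, from 250 bases before to 50 bases after the annotated start) matched 8 of the 10 genes; Tap2 and Nlrc5 had none. The NOD alleles may differ from this reference. H2-K1 had 2 windows, of which the first was used, so its positions refer to the start of that window. Capitals mark matches to the 4 motifs searched on both strands. The letters were GGGATTCCC for the NF-κB type, GAANNGAAA or GAAANNGAA for the interferon type, TGACG for the cyclic AMP response element (CRE) type and ATTGG, the complement of CCAAT, for the CCAAT type. The 2 forms of the interferon type can overlap each other and were then counted once. In the order H2-K1, H2-D1 and B2m, the stretches lie at chr17:34000352-34000461 on the minus strand, chr17:35262920-35263029 on the plus strand and chr2:122147544-122147653 on the plus strand, each upstream of the annotated start.
H2-K1: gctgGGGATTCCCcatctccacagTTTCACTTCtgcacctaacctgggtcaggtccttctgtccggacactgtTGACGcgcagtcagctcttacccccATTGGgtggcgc
H2-D1: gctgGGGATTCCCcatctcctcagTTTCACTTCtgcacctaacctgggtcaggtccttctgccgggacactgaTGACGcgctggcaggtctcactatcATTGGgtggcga
B2m: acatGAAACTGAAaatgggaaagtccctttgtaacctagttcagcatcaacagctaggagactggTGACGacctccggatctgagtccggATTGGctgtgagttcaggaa

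The H2-K1 and H2-D1 stretches were identical at 98 of 110 bases (89.1%), and the 4 matches in them had the same order and spacing. Each window held a further CCAAT type match outside these stretches, on the minus strand at 9 in H2-K1 and at -53 in H2-D1. The NF-κB type began at position -110 in H2-K1 and -170 in H2-D1, counted from the annotated start, and the interferon type (on the minus strand) 20 bases further on. The CRE type followed 49 bases after that and the CCAAT type 25 bases after the CRE type. B2m had the interferon type at -139, the CRE type at -78 and, again 25 bases on, the CCAAT type at -53, and no match of the NF-κB type in its window. A further CRE type match lay outside the printed B2m stretch, on the minus strand at 45. In the class I promoters the CRE and CCAAT elements belong to the module on which Nlrc5 acts together with RFX, CREB and NF-Y. Of all 32851 windows in the table, 0.353% held the NF-κB type, 14.8% the interferon type, 20.8% the CRE type and 37.4% the CCAAT type, so the shorter motifs are common.

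Tap1 and Psmb9 are neighbours on chromosome 17 that start 225 bases apart and run in opposite directions. The stretch between the starts, chr17:34187331-34187555, is printed on the Tap1 strand because it is the upstream region of a transporter gene and an immunoproteasome gene at once.
Tap1: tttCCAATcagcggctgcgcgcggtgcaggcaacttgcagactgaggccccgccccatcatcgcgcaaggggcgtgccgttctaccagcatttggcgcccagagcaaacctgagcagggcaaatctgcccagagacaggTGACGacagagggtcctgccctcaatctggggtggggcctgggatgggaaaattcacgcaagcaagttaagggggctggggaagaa

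The CRE type lay at -86 of Tap1, which is -144 of Psmb9 on its other strand, and the CCAAT type at -222 of Tap1, which is -8 of Psmb9. Tapbp had the CCAAT type at -248 and -165, and the windows of Psmb8 and Psmb10 held none of the 4 motifs. In gene order along chromosome 17 the genes were Tapbp, H2-K1, Psmb9, Tap1, Psmb8, Tap2 and H2-D1, while B2m lies on chromosome 2 and Nlrc5 and Psmb10 on chromosome 8. Binding of no factor was measured here.

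**Figure D1:**
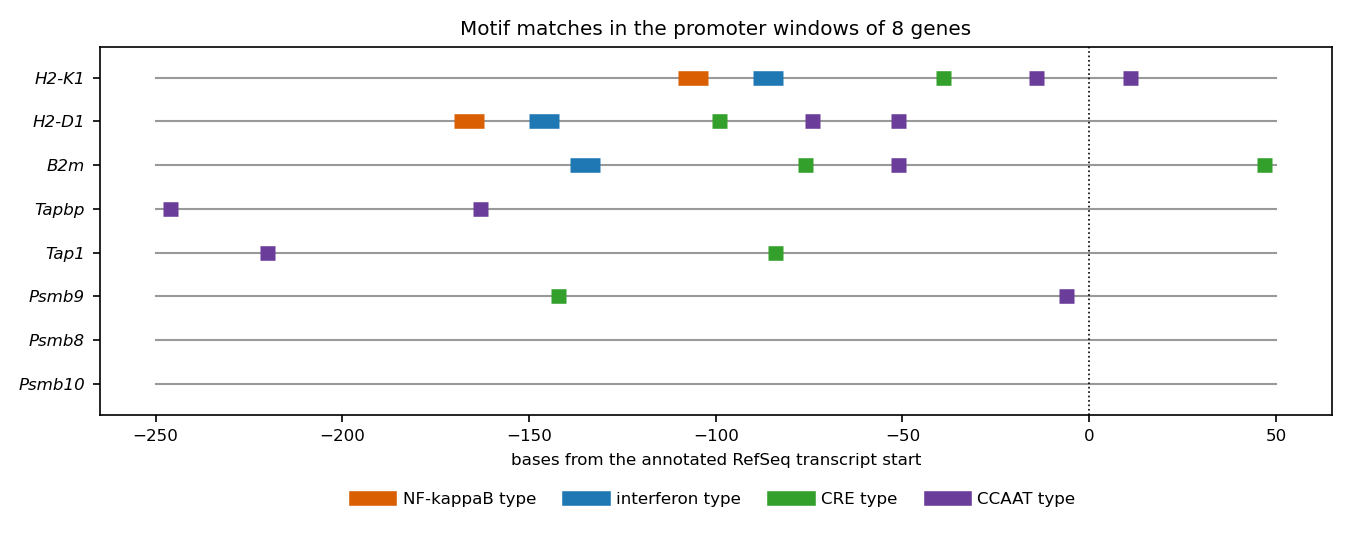
Each line is the RefSeq promoter window of a gene, with bases from the annotated start on the horizontal axis and coloured blocks for matches to the 4 motifs. The first 4 matches of H2-K1 and H2-D1, from -110 and -170, have the same order and spacing, a further CCAAT type match follows at 9 and -53, and Psmb8 and Psmb10 carry none.

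With this set of genes in view, the first question was whether the class I and loading genes differed in the spleens of TSA-treated mice that stayed free of diabetes from those of untreated non-diabetic mice. The mean level of 9 of the 10 genes was lower in TSA-treated mice, most of all for Tapbp, Tap2 and Tap1, and that of B2m was higher. No gene passed the test after adjustment. The 10 genes had a median difference of -0.76, against 0.05 over all 45037 probe sets and 0.00 over the 22518 above the median level. That value takes the brightest probe set of each gene; over all 30 probe sets, dim ones included, the median was -0.15, with 19 below 0 and 11 above. The differences were much larger on TSA-treated replicate 2 than on replicate 1.

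**Figure D2:**
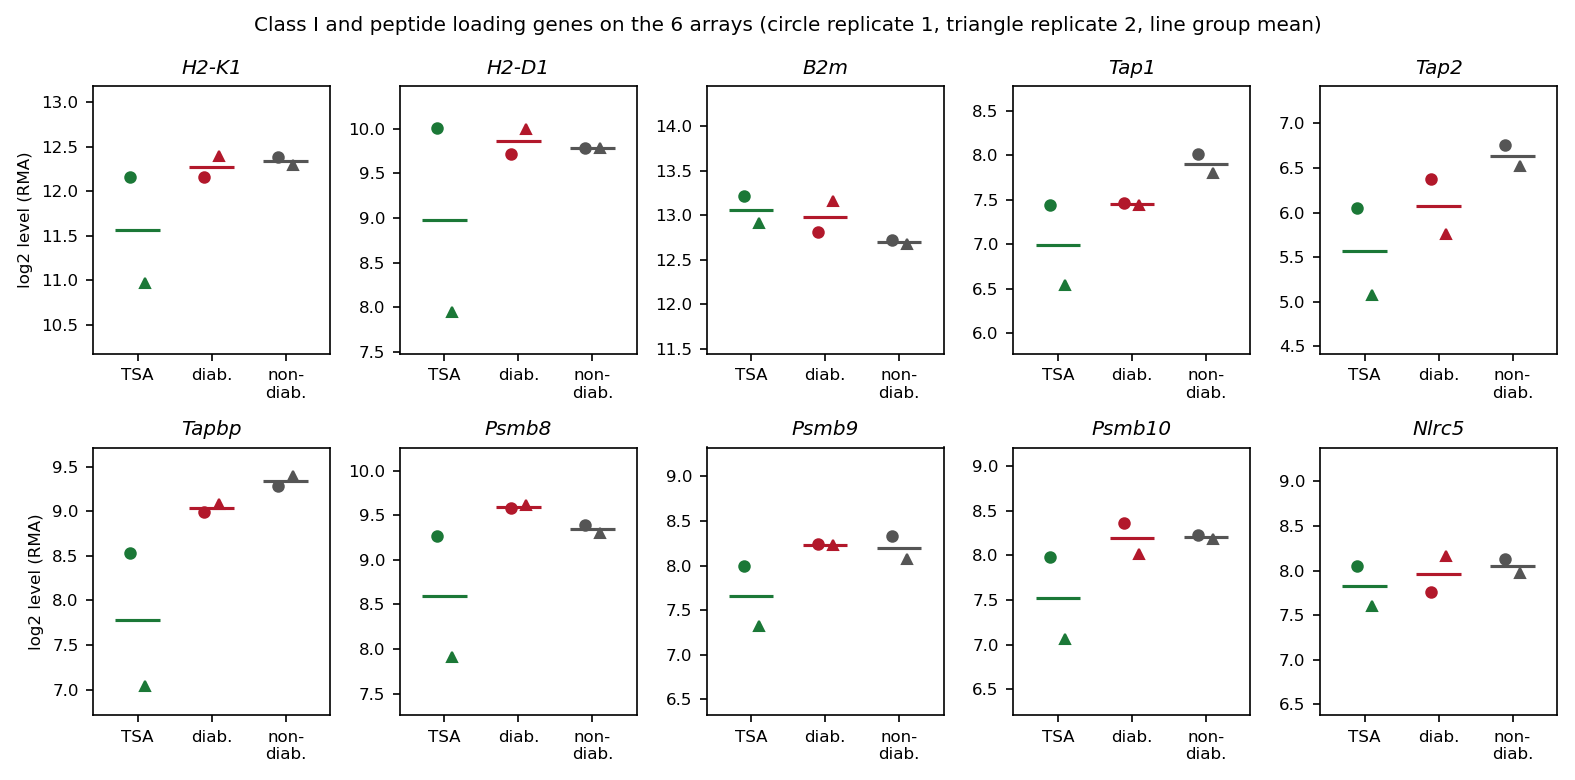
Log2 level of each of the 10 genes on the 6 arrays, with TSA-treated arrays left, diabetic arrays in the middle and untreated non-diabetic arrays right (circles replicate 1, triangles replicate 2, lines group means). Every panel spans 3 log2 units; TSA-treated replicate 2 is the lowest array for 9 genes and not for B2m.

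The transport and loading genes came first in size. Tapbp, the tapasin that bridges class I and TAP, had levels of 8.53 and 7.04 in TSA-treated mice, 8.99 and 9.08 in diabetic mice and 9.28 and 9.39 in untreated non-diabetic mice. Both TSA-treated arrays lay below all others, and the diabetic arrays lay between. The difference between TSA-treated and untreated non-diabetic mice was -1.55 with a standard error of 0.46 (unadjusted p = 0.0152, adjusted p = 0.224 by limma), or 0.341 of the untreated non-diabetic level. The other Tapbp probe set, dimmer, gave 3.94 and 4.11 in TSA-treated, 4.67 and 4.12 in diabetic and 4.55 and 4.92 in untreated non-diabetic mice, a difference of -0.71 ± 0.25 (SE) between TSA-treated and untreated non-diabetic mice.

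Tap1, which with Tap2 forms the channel for peptides, had levels of 7.44 and 6.54 in TSA-treated mice, 7.46 and 7.44 in diabetic mice and 8.01 and 7.80 in untreated non-diabetic mice. Untreated non-diabetic mice were the highest on both arrays, and the other groups met at 7.44. The difference was -0.92 with a standard error of 0.31 (unadjusted p = 0.0246, adjusted p = 0.261 by limma). The other 3 Tap1 probe sets were dim, at means between 2.51 and 3.38 in every group, and differed by -0.07, -0.04 and 0.80.

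Tap2 was measured by 1 probe set, at 6.05 and 5.08 in TSA-treated mice, 6.38 and 5.76 in diabetic mice and 6.76 and 6.52 in untreated non-diabetic mice. Its difference between TSA-treated and untreated non-diabetic mice was -1.07 with a standard error of 0.37 (unadjusted p = 0.0279, adjusted p = 0.273 by limma). Only Tap1, Tap2 and Tapbp among the 10 genes had an unadjusted p under 0.05 in this comparison, all 3 lower. Of all probe sets, 14.7% had one and 8.34% had one and were lower. The probe sets representing the 10 genes all lie above the median level, and of the 22518 there 3165 had one and were lower.

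The heavy chains differed by array more than by group. H2-K1, through its brightest probe set, had levels of 12.16 and 10.97 in TSA-treated mice, 12.16 and 12.39 in diabetic mice and 12.38 and 12.29 in untreated non-diabetic mice. H2-D1 had 10.01 and 7.95 in TSA-treated mice, a mean of 9.86 ± 0.20 (SD over its 2 arrays) in diabetic mice and 9.79 on both untreated non-diabetic arrays. For H2-D1 the TSA-treated arrays were both the highest and the lowest of the 6, so the groups overlapped. The differences between TSA-treated and untreated non-diabetic mice were -0.77 ± 0.38 (SE) for H2-K1 and -0.81 ± 0.62 for H2-D1 (adjusted p = 0.426 and 0.615 by limma), and that of H2-D1 was 0.22 on replicate 1 alone.

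H2-K1 and H2-D1 are close relatives, and probe sets of one can take up transcripts of the other and of the Q-region class I genes, a split that the probe sets cannot resolve. The probe set annotated to both had 9.36 and 8.0 in TSA-treated, 9.43 and 9.51 in diabetic and 9.56 and 9.47 in untreated non-diabetic mice, with a difference of -0.84 ± 0.42 (SE) between TSA-treated and untreated non-diabetic mice. H2-K1 had 6 probe sets in all, whose differences in that comparison ran between -0.97 and 0.16, and H2-D1 had 11, between -0.84 and 0.43. One H2-K1 probe set also names H2-Q5, and one of H2-D1 also names H2-Q2. The positive ends came from dimmer probe sets, and the H2-D1 probe set at 7.75 and 5.97 in TSA-treated, 7.10 and 7.24 in diabetic and 6.76 and 6.92 in untreated non-diabetic mice spread across the whole range within the treated pair.

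B2m, the light chain shared by all class I molecules, went the other way. Its levels were 13.22 and 12.91 in TSA-treated mice, 12.81 and 13.16 in diabetic mice and 12.72 and 12.68 in untreated non-diabetic mice. Both other groups lay above untreated non-diabetic mice without overlap, by 0.36 ± 0.20 (SE) in TSA-treated mice (adjusted p = 0.481 by limma) and by 0.28 ± 0.20 in diabetic mice (adjusted p = 0.919 by limma). The other B2m probe set had 12.58 and 11.75 in TSA-treated mice, 12.28 and 12.68 in diabetic mice and 11.99 and 11.92 in untreated non-diabetic mice, so there the TSA-treated arrays fell on either side of the untreated ones.

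The 3 immunoproteasome subunits varied in a similar way over the arrays. Psmb8 had 9.27 and 7.91 in TSA-treated mice, 9.58 and 9.61 in diabetic mice and 9.39 and 9.30 in untreated non-diabetic mice. Psmb9 had 8.0 and 7.32 in TSA-treated, 8.24 and 8.23 in diabetic and 8.33 and 8.07 in untreated non-diabetic mice. Psmb10 had 7.98 and 7.06 in TSA-treated, 8.36 and 8.02 in diabetic and 8.23 and 8.18 in untreated non-diabetic mice. For each of the 3 both TSA-treated arrays lay below all 4 others. The differences between TSA-treated and untreated non-diabetic mice were -0.76 ± 0.42 (SE) for Psmb8, -0.54 ± 0.26 for Psmb9 and -0.69 ± 0.32 for Psmb10 (adjusted p = 0.483, 0.407 and 0.398 by limma). A second, dimmer Psmb8 probe set was higher in TSA-treated mice, at 4.93 on both arrays, against 4.73 and 4.84 in diabetic and 4.63 and 4.55 in untreated non-diabetic mice.

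Nlrc5, which drives transcription of class I genes, B2m, Tap1 and Psmb9 in lymphocytes, had the narrowest range of group means. Its levels were 8.05 and 7.60 in TSA-treated mice, 7.76 and 8.16 in diabetic mice and 8.13 and 7.97 in untreated non-diabetic mice. The groups overlapped in every comparison, and the difference between TSA-treated and untreated non-diabetic mice was -0.23 ± 0.23 (SE, adjusted p = 0.712 by limma).

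Across the 10 genes, 7 had both TSA-treated arrays below both untreated non-diabetic arrays, where 21.5% of all probe sets did. For 1, B2m, both lay above, where 26.3% did. Of the 22518 probe sets above the median level, 6597 were lower and 6252 higher in this way. By the adjusted test limma called 0 of the 10 (3 at an unadjusted p under 0.05), the LPE test 0 and the methods' t-test 0 (0 unadjusted), while limma called 0.0688% of all probe sets. With 2 arrays against 2 an exact permutation test of a single gene cannot go below p = 0.333. A missed threshold in this design therefore does not show that the levels were equal.

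TSA-treated replicate 2 decided most of the size. Against the untreated non-diabetic mean, the median over the 10 genes was -0.19 on TSA-treated replicate 1, with 8 genes lower, and -1.37 on replicate 2, with 9 lower; over the probe sets above the median level those values were 0.03 and -0.06. Tapbp differed by -0.81 on replicate 1 and by -2.30 on replicate 2. Without replicate 2 the differences from untreated non-diabetic mice were -0.59 for Tap2, -0.47 for Tap1, -0.23 for Psmb10, -0.20 for Psmb9, -0.18 for H2-K1, -0.07 for Psmb8 and -0.01 for Nlrc5, and 0.22 for H2-D1 and 0.52 for B2m. Without replicate 1, limma called 5 of the 10, all lower, namely H2-K1, H2-D1, Tap1, Tapbp and Psmb8 at -1.37, -1.84, -1.37, -2.30 and -1.44, where 3.24% of all probe sets were called lower. Without replicate 2 it called 0. Replicate 2 had also the widest beta-actin gap, 5.61, and replicate 1 the next widest, 3.45. The part of RNA length in these values was not tested.

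**Figure D3:**
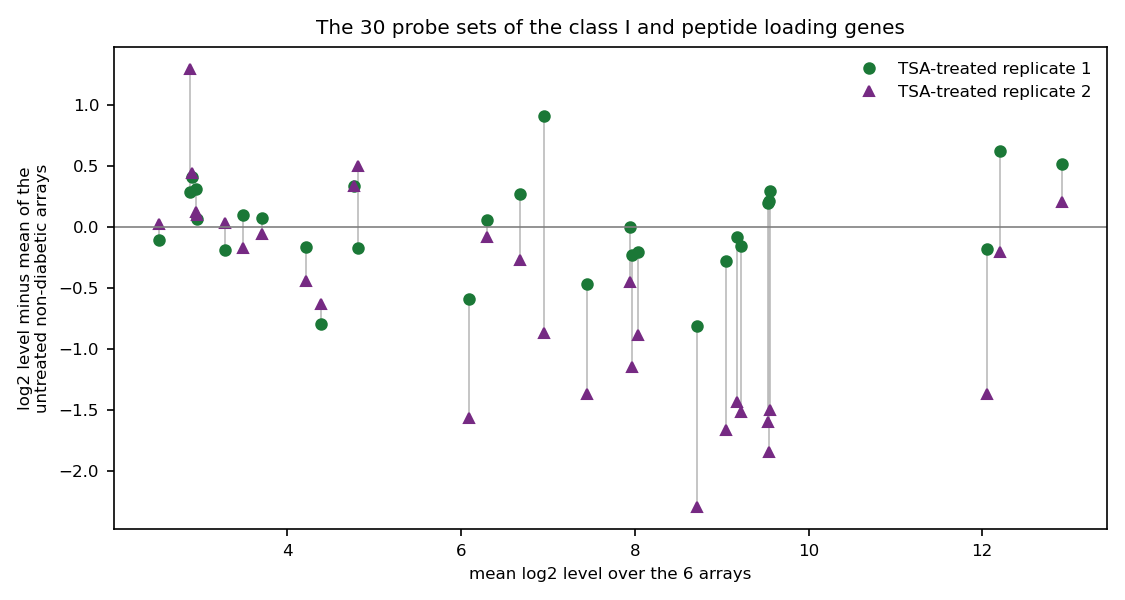
All 30 probe sets of the 10 genes, with the mean log2 level over the 6 arrays on the horizontal axis and, for each TSA-treated array, the log2 level minus the untreated non-diabetic mean on the vertical axis. Grey lines join the 2 arrays of a probe set; most of the bright probe sets lie lower on replicate 2 (triangles) than on replicate 1 (circles), with Tapbp lowest at -2.30.

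T and B cell markers, like 9 of the 10 genes, had lower means in TSA-treated than in untreated non-diabetic mice. Both TSA-treated arrays lay below both untreated non-diabetic arrays for 7 of 7 measured T cell markers, 6 of 6 B cell markers, 4 of 5 plasma cell and 4 of 4 megakaryocyte markers, against the 21.5% of all probe sets given above. They lay above for 6 of 9 erythroid, 5 of 8 macrophage and 2 of 5 NK cell markers, against 26.3%. They lay below for 1 macrophage marker, C1qa, at -3.79, and 1 NK cell marker, Prf1, at -0.37. C1qa had 7.24 and 3.42 in TSA-treated and 9.07 and 9.17 in untreated non-diabetic mice, and C1qb was higher by 0.19. Prf1 was dim, at means of 2.86 in TSA-treated and 3.23 in untreated non-diabetic mice. Neutrophil markers lay below for 3 of 7 and above for 2, and dendritic cell markers below for 1 of 5 and above for 2. Among the markers above, Hba-a1, Ncr1 and Xcr1 were dim. Their TSA-treated means were 3.33, 3.64 and 2.73, under the median level of 3.89. None of the T or B cell markers passed the adjusted test (lowest adjusted p = 0.127 and 0.178 by limma). The summed level of the T cell markers (log2) was 10.60 and 10.16 in TSA-treated, 10.73 and 10.91 in diabetic and 11.10 and 11.15 in untreated non-diabetic mice, and that of the B cell markers 12.28 and 11.12 in TSA-treated, 12.85 and 12.83 in diabetic and 13.01 and 12.95 in untreated non-diabetic mice. The T cell markers differed by between -1.52 (Cd2) and -0.14 (Cd8a), and the B cell markers by between -3.10 (Cd79a) and -0.81 (Pax5). Relative to the untreated non-diabetic mean, the median T cell marker stood at -0.57 on TSA-treated replicate 1 and -1.17 on replicate 2. For the B cell markers these values were -0.67 and -1.89. In RNA of a whole organ, fewer cells of a type and less RNA per cell cannot be told apart, and the part of lymphocyte number in the class I values was not tested. Pancreatic acinar markers were higher in both other groups than in untreated non-diabetic mice, with a summed level of 11.92 and 11.81 in TSA-treated, 14.55 and 14.54 in diabetic and 8.09 and 8.10 in untreated non-diabetic mice.

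The second comparison asked whether the genes differed between untreated mice with and without diabetes. It shares the untreated non-diabetic arrays with the first, so the values are not independent of it. The loading genes were again the lowest relative to untreated non-diabetic mice, at -0.45 ± 0.31 (SE) for Tap1, -0.57 ± 0.37 for Tap2 and -0.30 ± 0.46 for Tapbp, with both diabetic arrays below both untreated ones for each. Psmb8 and B2m were higher without overlap, by 0.25 ± 0.42 and 0.28 ± 0.20. H2-K1, H2-D1, Psmb9, Psmb10 and Nlrc5 differed by -0.06, 0.07, 0.04, -0.01 and -0.09, each smaller than the standard error. Arrays did not overlap for 3 lower and 2 higher of the 10 genes, against 19.4% and 21.6% of all probe sets. Of the 22518 probe sets above the median level, 4953 were lower and 5803 higher in this way.

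Limma called 0 of the 10 genes between diabetic and untreated non-diabetic mice, and 0 had an unadjusted p under 0.05 (0.0888% and 6.27% of all probe sets). The adjusted p ran between 0.899 and 1, and the LPE test and the methods' t-test also called 0, with 1 at an unadjusted p under 0.05 by the t-test. The median difference of the 10 genes was -0.03, against 0.01 over all probe sets.

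The third comparison set TSA-treated against diabetic mice. These groups differ in treatment, in diabetes and, by the study's methods, in age, which cannot be told apart here. The mean level was lower in TSA-treated mice for 9 of the 10 genes, with a median of -0.63, against 0.02 over all probe sets, and of -0.31 over all 30 probe sets of the genes. Tapbp had the largest difference, -1.25 ± 0.46 (SE, unadjusted p = 0.0348, adjusted p = 0.902 by limma). Psmb8 followed at -1.0 ± 0.42, H2-D1 at -0.88 ± 0.62, H2-K1 at -0.71 ± 0.38, Psmb10 at -0.67 ± 0.32 and Psmb9 at -0.58 ± 0.26. Tap2 and Tap1 differed by -0.51 ± 0.37 and -0.47 ± 0.31, Nlrc5 by -0.14 ± 0.23 and B2m by 0.08 ± 0.20.

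Both TSA-treated arrays lay below both diabetic arrays for 6 of the 10 genes, against 11.4% of all probe sets and 3202 of the 22518 above the median level. For H2-K1 and Tap1 the nearest arrays of the groups had the same value to 2 decimals. Limma called 0 of the 10 (0.0266% of all probe sets), and 1, Tapbp, had an unadjusted p under 0.05 and was lower. Of all probe sets 2.06% had one and were lower (4.27% in either direction), and of the 22518 above the median level 857 were. The LPE test and the methods' t-test called 0. Without TSA-treated replicate 1, limma called H2-K1, H2-D1, Tapbp and Psmb8 lower, at -1.31, -1.91, -2.0 and -1.69, where 2.04% of all probe sets were called lower. Without TSA-treated replicate 2 limma called 0, and the differences were -0.51 for Tapbp, -0.32 for Psmb8, -0.24 for Psmb9, -0.22 for Psmb10, -0.12 for H2-K1, -0.03 for Tap2 and -0.02 for Tap1, and turned to 0.15 for H2-D1 and 0.09 for Nlrc5.

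**Figure D4:**
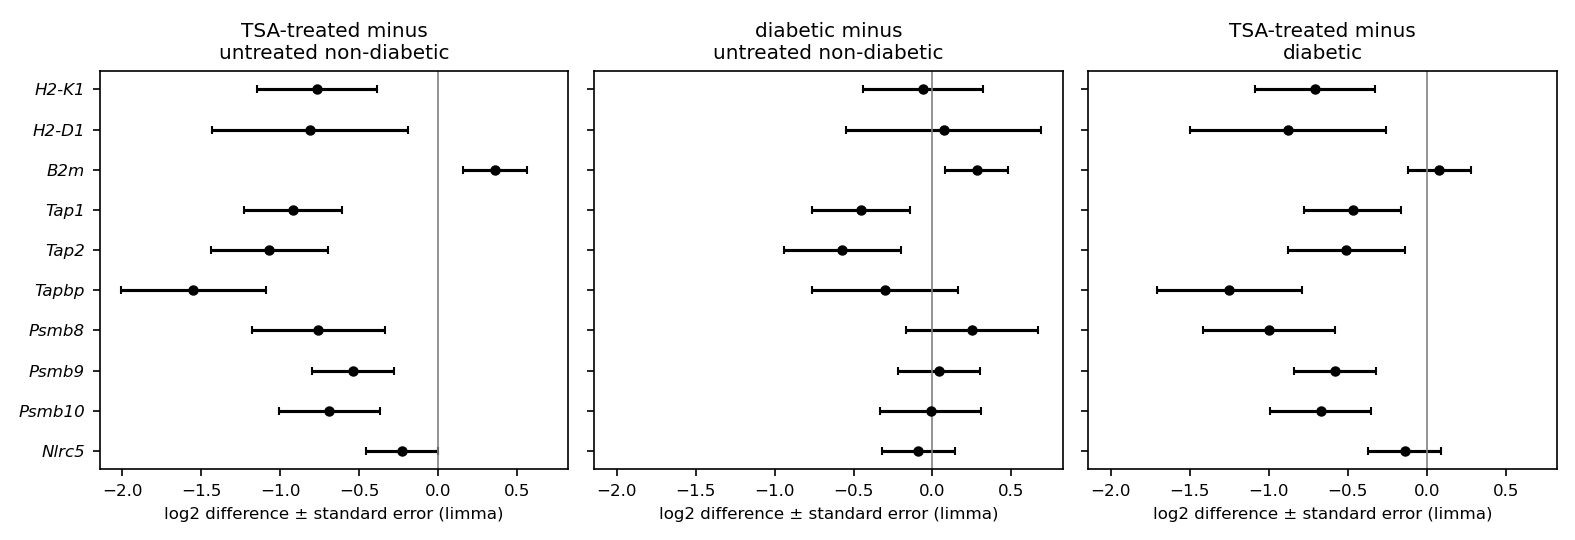
Log2 difference of each gene in the 3 comparisons, with the limma standard error as bars. Tapbp lies farthest left in both comparisons of TSA-treated mice, at -1.55 and -1.25, and B2m is the gene with a positive value in all 3.

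Ordered by their means, Tap1, Tap2, Tapbp, H2-K1, Psmb10 and Nlrc5 ran TSA-treated, diabetic, untreated non-diabetic from low to high. For Tapbp and Tap1 both neighbouring steps were free of overlap, though for Tap1 the nearest TSA-treated and diabetic arrays were both at 7.44. For Tap2 the step between TSA-treated and diabetic mice overlapped. For H2-K1, Psmb10 and Nlrc5 the diabetic and untreated non-diabetic arrays overlapped. For H2-D1, Psmb8 and Psmb9 diabetic mice had the highest mean and TSA-treated mice the lowest. For B2m the order was untreated non-diabetic, diabetic and TSA-treated from low to high, with overlap between the last pair. No neighbouring step passed the adjusted test.

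Each immunoproteasome subunit takes the place of a constitutive one, Psmb8 of Psmb5, Psmb9 of Psmb6 and Psmb10 of Psmb7. The difference between the partners on the same array was taken after the values were seen and has no test. Relative to the untreated non-diabetic mean, Psmb8 minus Psmb5 was -0.49 and -0.59 in TSA-treated mice, 0.01 and -0.02 in diabetic mice and -0.16 and 0.16 in untreated non-diabetic mice. Psmb9 minus Psmb6 was -0.77 and -0.97 in TSA-treated, -0.23 and -0.57 in diabetic and -0.15 and 0.15 in untreated non-diabetic mice. For these pairs the TSA-treated arrays lay close together, unlike the levels of Psmb8 and Psmb9 themselves, and below all other arrays. The partners entered differently on the 2 arrays. On TSA-treated replicate 1, Psmb8 and Psmb9 stood at -0.07 and -0.20 from the untreated non-diabetic mean, and Psmb5 and Psmb6 at 0.42 and 0.57. On replicate 2 the values were -1.44 and -0.88 for Psmb8 and Psmb9, and -0.85 and 0.10 for Psmb5 and Psmb6. Psmb10 minus Psmb7 was -1.10 and -0.07 in TSA-treated, -0.34 and -0.85 in diabetic and -0.10 and 0.10 in untreated non-diabetic mice, without such order.

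**Figure D5:**
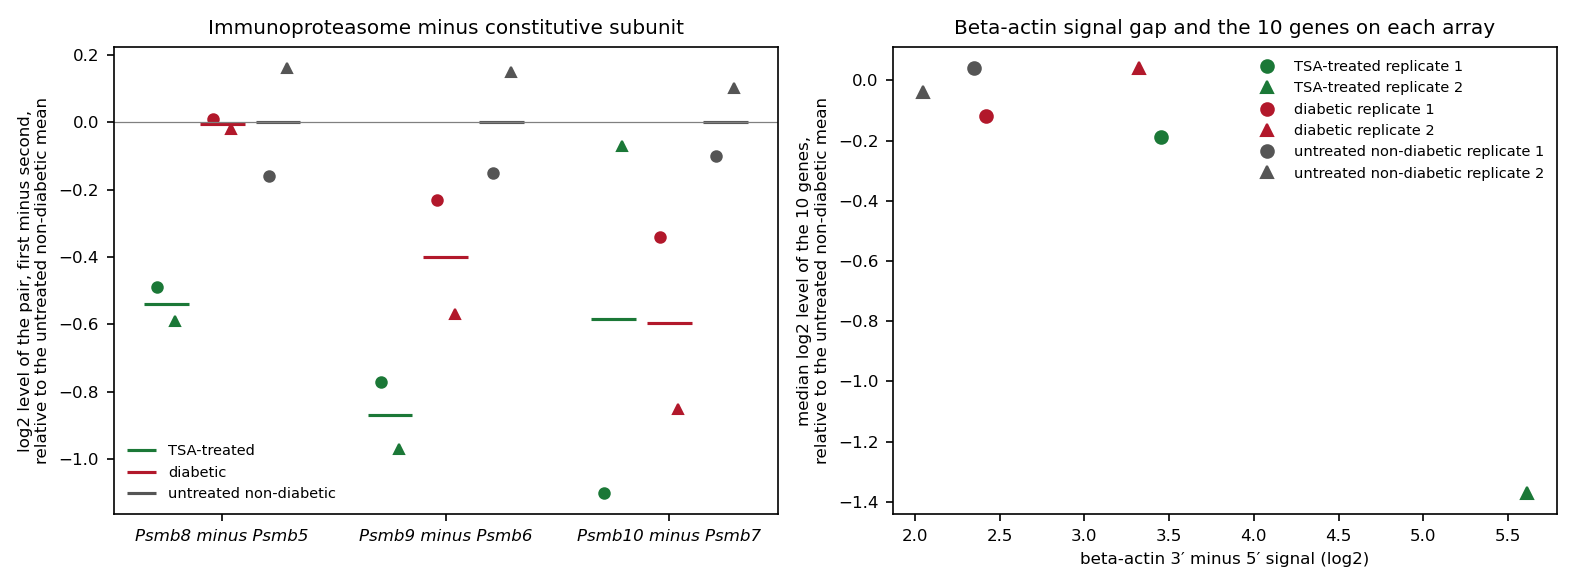
Left, log2 level of each immunoproteasome subunit minus its constitutive partner on the same array, relative to the untreated non-diabetic mean, with TSA-treated, diabetic and untreated non-diabetic arrays from left to right and lines for group means. Right, the median of the 10 genes on each array against the 3′ minus 5′ signal gap of beta-actin; TSA-treated replicate 2, at 5.61 and -1.37, stands apart.

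The wider class I pathway was described with 8 lists of 79 genes, of which 70 were measured, by 66 probe sets. Limma called 0 of the 66 in any comparison. At an unadjusted p under 0.05, 8 were higher and 3 lower between TSA-treated and untreated non-diabetic mice, 4 and 1 between diabetic and untreated non-diabetic mice, and 3 and 1 between TSA-treated and diabetic mice. The shares of all probe sets at that p, in either direction, were the 14.7%, 6.27% and 4.27% given above. The median differences were -0.04, 0.13 and -0.12. Of the 35 probe sets below 0 between TSA-treated and untreated non-diabetic mice, 16 were above 0 on TSA-treated replicate 1 alone.

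The rest of the proteasome had differences of both signs. The constitutive partners Psmb5, Psmb6 and Psmb7 differed by -0.21, 0.33 and -0.10 between TSA-treated and untreated non-diabetic mice (0.42, 0.57 and 0.87 without TSA-treated replicate 2), and the other 11 subunits of the core particle had a median of 0.41, with 8 above 0 and 3 below. Psma5 had 10.31 and 10.91 in TSA-treated, 10.09 and 9.93 in diabetic and 9.80 and 9.81 in untreated non-diabetic mice (difference 0.80), which was 0.50 without TSA-treated replicate 2. Psma7 had 9.44 and 7.19 in TSA-treated and 9.10 and 9.13 in untreated non-diabetic mice, and Psma4 had 9.20 and 7.42 in TSA-treated and 8.97 and 9.13 in untreated non-diabetic mice. Their differences of -0.80 and -0.74 turned to 0.33 and 0.15 without replicate 2. Of the PA28 activator, whose Psme1 and Psme2 subunits interferon gamma induces, Psme1 and Psme2 differed by -0.32 and -0.70 (0.21 and -0.25 without replicate 2), and the Psme2 probe set also names Psme2b. Psme3, the nuclear subunit that acts apart from them, had 9.0 and 9.21 in TSA-treated, 8.49 and 8.92 in diabetic and 8.17 and 7.98 in untreated non-diabetic mice, a difference of 1.03 ± 0.21 (SE, adjusted p = 0.146 by limma) that was 0.92 without replicate 2.

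Several chaperones that assist class I had lower means in TSA-treated than in untreated non-diabetic mice. Calr, calreticulin, which holds class I in the complex, had 10.83 and 9.77 in TSA-treated, 11.31 and 11.05 in diabetic and 11.42 and 11.35 in untreated non-diabetic mice, a difference of -1.08 ± 0.35 (SE, adjusted p = 0.247 by limma). Pdia3 (ERp57, the partner of tapasin) differed by -1.20 and Hspa5 by -0.88. Without TSA-treated replicate 2 the differences were -0.56 for Calr, -0.45 for Pdia3 and -0.12 for Hspa5. In this list of 6 genes 4 were below 0 and 2 above, with a median of -0.51.

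Of the genes that act upstream of the class I promoters, 13 of 15 listed factors were measured, 10 with a difference below 0. Irf8, Rela and Creb1, which bind interferon, NF-κB and CRE elements, differed by -1.41, -1.10 and -1.08 between TSA-treated and untreated non-diabetic mice, with adjusted p of 0.371, 0.359 and 0.441 by limma, and by -0.41, -0.38 and -0.68 without TSA-treated replicate 2. Irf8 had 9.44 and 7.44 in TSA-treated, 9.51 and 10.04 in diabetic and 9.84 and 9.86 in untreated non-diabetic mice. In the interferon gamma pathway Jak1 had 10.20 and 7.79 in TSA-treated, 9.74 and 9.83 in diabetic and 9.79 and 9.88 in untreated non-diabetic mice. Its difference of -0.84 between TSA-treated and untreated non-diabetic mice turned to 0.36 without replicate 2, and that of Ifngr1, -0.16, to 0.21. Jak2 differed by 0.50 and, without replicate 2, by 0.36. The Ifng probe set was dim, at 3.06 and 3.15 in TSA-treated, 3.10 and 3.25 in diabetic and 3.32 and 2.89 in untreated non-diabetic mice.

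The other class I genes, 19 of 24 measured by 15 probe sets, had a median difference of -0.06 between TSA-treated and untreated non-diabetic mice, with 10 below 0 and 5 above. The probe set shared by H2-Q6 and H2-Q8 had 9.86 and 7.63 in TSA-treated and 9.55 and 9.54 in untreated non-diabetic mice, and its difference of -0.79 turned to 0.32 without TSA-treated replicate 2. That shared by H2-T9, H2-T10 and H2-T22 differed by -0.53 (-0.19 without it). H2-Q2 was dim, at 3.09 and 2.74 in TSA-treated and 2.44 and 2.65 in untreated non-diabetic mice, and differed by 0.37 (0.55 without replicate 2). Among the listed receptors that read class I or are related to such receptors, 8 of 10 were above 0. Of these, Klra1, Klra2, Klra8 and Klrc1 were dim. The probe set shared by Klra3, an inhibitory receptor of NK cells, and Klra9 had 5.75 and 6.40 in TSA-treated, 5.46 and 5.73 in diabetic and 4.90 and 5.14 in untreated non-diabetic mice, a difference of 1.06 (0.74 without replicate 2). Klrc1 differed by 0.88 and, among the relatives, the probe set shared by Lilrb4a and Lilr4b by 0.67 (0.87 and 0.68 without replicate 2).

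The mean profile of the 10 genes over the 6 arrays was most like those of Tecr, Ergic3, Myl9, BC005624 and Cd151, with Pearson's r between 0.998 and 0.999 over 6 arrays that share 3 pools. Tecr had 8.50 and 6.61 in TSA-treated, 8.62 and 8.66 in diabetic and 8.84 and 8.74 in untreated non-diabetic mice. TSA-treated replicate 2 was the lowest array for each of these 5 genes, and 944 of the 4083 probe sets compared had an r above 0.9. The probe sets compared named 1 gene other than the 10, lay above the median level and varied over the arrays with an SD of at least 0.52. That floor was the median SD of the 10 genes, so probe sets with little variation were left out. Among the 10 genes H2-K1 followed their mean profile most closely (r = 0.99), Nlrc5 less (0.79) and B2m not (-0.08). Each gene is itself part of that mean, which raises its r. The profile was -0.95 on TSA-treated replicate 2 and between 0.08 and 0.31 on the other arrays, so r mostly reflects that 1 array.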

How the data were processed

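The data are 6 Affymetrix mouse arrays of spleen RNA from female NOD mice, 2 per group, from 1 RNA pool per group. The deposited values are log2 levels per probe set. To make them, the authors used quantile normalization across arrays and Robust Multi-array Average summaries (software S+Array Analyzer 2.0.1 on S-Plus 6.2). The labels name splenocytes, and the methods describe lysed spleens. Probe-level signals were not used here. Quantile normalization evens out the distributions of the arrays, so a shift shared by all genes is largely hidden, and low values are compressed. The deposited levels did not share 1 distribution exactly. Array medians ran between 3.79 on diabetic replicate 2 and 3.95 on TSA-treated replicate 2. The number of arrays limits the precision.

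The 30 probe sets annotated to the 10 genes were taken from 45037, after 64 Affymetrix control probe sets had been set aside. In the platform annotation 34945 named 1 gene, 932 several and 9160 none. Where a gene had several, it was represented by the brightest one (mean of the 6 arrays) that named no other gene. Group means were fitted to all arrays by limma 3.58.1 (R 4.3.3; 3 residual and 2.94 prior degrees of freedom) without a filter. Calls were made at a Benjamini-Hochberg adjusted p under 0.05 over all 45037. The fit was tested on simulated data. Tables were made with Python 3.11.15 and pandas 2.3.3.

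The genes and lists were chosen with earlier results of these data known. The genes named were the 10 genes by every probe set, up to 3 genes of each pathway list with the largest difference between TSA-treated and untreated non-diabetic mice, and the 5 genes whose pattern over the arrays was most like the mean of the 10. Markers and the Ifng values were added beside results that they touch. The replicate numbers did not pair the arrays. Alternatives were the replicate number as a block, leaving out each array, a fit of the compared groups alone, an intensity trend, the local pooled error (LPE) test, the methods' t-test, repeated quantile normalization, median centring, a filter on dim probe sets and averaged probe sets per gene. Promoter sequences came from RefSeq (GRCm38.p6), and gene order from a RefSeq gene table.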

Additional observations from a re-analysis of the deposited data

How the results depend on the processing

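The counts of called genes by limma stayed at 0 under every alternative except the omission of single arrays. Leaving out each array in turn gave between 0 and 5 of the 10 genes for TSA-treated minus untreated non-diabetic mice, 0 throughout for diabetic minus untreated non-diabetic mice, and between 0 and 4 for TSA-treated minus diabetic mice. Of the other pathway genes, the ranges were 0 to 10, 0 to 1 and 0 to 7. The highest counts came without TSA-treated replicate 1, except the 1 pathway gene, which came without diabetic replicate 1. In these fits the lone array of a group was assumed to vary like the others. Over all probe sets the calls between TSA-treated and untreated non-diabetic mice numbered 31, against 2045 without TSA-treated replicate 1, 1615 by the LPE test and 2 by the methods' t-test. With the replicate block 0 of the 10 genes were called in each comparison, and 30, 33 and 0 of all probe sets, against 31, 40 and 12 without it. The replicate deviations of the groups correlated at -0.10, -0.04 and -0.34, so the block was not used as a pairing.

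Of 150 differences of the 10 genes between TSA-treated and untreated non-diabetic mice over the alternatives, 149 kept their sign. Averaging the probe sets of a gene moved Tap1 from -0.92 to -0.06, H2-D1 from -0.81 to -0.14 and Psmb8 from -0.76 to -0.21 in this comparison, since dim probe sets enter the average. That of H2-D1 ran between -1.84 and 0.22 as each array was left out, and turned without TSA-treated replicate 2. Between TSA-treated and diabetic mice 142 of 150 kept it. With arrays left out in turn, H2-D1 ran between -1.91 and 0.15, B2m between -0.10 and 0.26 and Nlrc5 between -0.36 and 0.09. Nlrc5 also turned to 0.02 with repeated quantile normalization. When a gene was taken as the average over its probe sets, B2m turned to -0.12 and Tap1 to 0.09, for Tap1 with 3 dim probe sets taken in. Between diabetic and untreated non-diabetic mice 140 of 150 kept it, and the changes were among differences of at most 0.09. With arrays left out in turn, H2-K1 ran between -0.17 and 0.06, H2-D1 between -0.07 and 0.21, Psmb9 between -0.09 and 0.16, Psmb10 between -0.18 and 0.16 and Nlrc5 between -0.30 and 0.11. With repeated quantile normalization H2-D1 turned to -0.05 and Psmb9 to -0.06, with median centring Psmb10 to 0.04, and with averaged probe sets H2-K1 to 0.05. The cause of these changes was not tested. Of the 30 probe sets, 8 were not above the median level of 3.89, where background limits what a difference can show.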
